A study of Rattus norvegicus with 20 samples.

Results

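The mRNA levels of 10 genes were followed in the hippocampus of female rats at 4 months of age: Mapt, which encodes tau, the kinases Gsk3a, Gsk3b, Cdk5, Dyrk1a, Mark1, Mark2 and Fyn, the Cdk5 activator Cdk5r1, and Ppp2ca, which encodes a catalytic subunit of protein phosphatase 2A (PP2A). The genes were chosen by symbol for their textbook roles in tau phosphorylation and not by their values, though earlier results of these data were known. All 10 were found among the 17168 gene symbols of each table. The study asked which transcripts differ early between a transgenic rat model of Alzheimer's disease (AD) and its wild-type, and which differ after a drug co-treatment. Poly(A) mRNA of 20 rats was sequenced from stranded libraries, 1 library per rat. The labels name the left hippocampus, while the methods of the study name the right. In the genotype set, 5 wild-type rats (WTNT) and 5 TgF344-AD rats (TGNT) ate normal chow. In the treatment set, 4 further TGNT rats on normal chow stood beside 6 TgF344-AD rats (TGTR) that were fed diazoxide (DZ) at 10 mg/kg and dibenzoylmethane (DIB) at 200 mg/kg in their chow, both per day and from day 52 of age. TgF344-AD rats are Fischer 344 rats with human APPsw and a further human transgene, both driven by the prion promoter, and carry no tau transgene, so Mapt here is the rat's own gene. No wild-type rat was given the drugs in these data.

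Tau is a neuronal protein that binds microtubules along the axon, and phosphate groups on its repeat region and flanks loosen that binding. GSK3 and CDK5 phosphorylate serines and threonines that precede a proline, DYRK1A can prime sites for GSK3, MARK kinases act on the repeat region, and Fyn is a tyrosine kinase, while PP2A is the main phosphatase that removes phosphate from tau in brain. In AD, hyperphosphorylated tau gathers in neurofibrillary tangles, and the hippocampus is affected early. Most of this regulation acts on the proteins, which mRNA levels do not show.

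Values per rat are given as RPM, the reads of a gene relative to the size of its library, which the authors scaled with TMM factors (trimmed mean of M-values) over the 10 rats of a set. RPM are not divided by gene length, so levels are compared between rats and not between genes. The 2 sets were normalized separately and are never compared by a test. Library totals ran from 5848458 to 9926088 estimated counts in the genotype set and from 9215039 to 14175594 in the treatment set, and groups did not differ beyond the spread between rats (two-sided exact permutation tests, p = 0.706 for genotype and p = 0.662 for treatment). The 10 genes had between 212 and 5529 counts per rat in the genotype set and between 403 and 9426 in the treatment set, and all 10 had whole counts in every rat. Fold changes and their tests come from the counts, with the quasi-likelihood test of edgeR over all genes and Benjamini-Hochberg adjustment, and calling a gene took both a fold change of 1.5 or more in either direction and an adjusted p below 0.05. The p-values measure the spread between rats, and in bulk tissue fewer cells of a type and less RNA per cell cannot be told apart. Markers of mature neurons (summed level 7728 to 11590 RPM over the 20 rats) and of hippocampal excitatory neurons (2442 to 4213 RPM) were present in every rat.

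None of the 10 genes was called in either comparison, and none had an unadjusted p under 0.05 in either. Of all 17168 genes, 0.0116% were called in the genotype set and 0% in the treatment set. An unadjusted p under 0.05 was found for 3.23% and 4.91% of all genes, and for 4.07% and 6.14% of those past edgeR's filter on low counts (filterByExpr). The groups overlapped in RPM for all 10 genes in both comparisons, whereas groups did not overlap for 0.513% and 1.15% of all genes. The log2 fold changes of the 10 genes lay between -0.09 and 0.06 for TGNT against WTNT, with a median of -0.0347 (4 above 0 and 6 below), and between -0.05 and 0.10 for TGTR against TGNT, with a median of -0.00307 (5 above 0 and 5 below). The medians of all genes with at least 10 counts in every rat were 0.00522 and -0.000218.

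**Figure D1:**
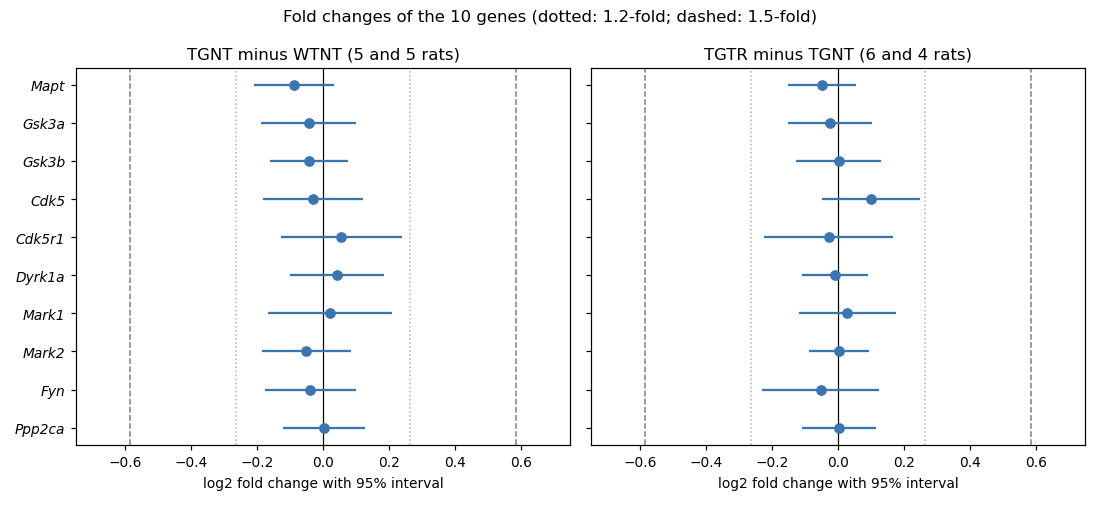
Log2 fold change (x axis) of each of the 10 genes from edgeR, TGNT minus WTNT on the left (5 and 5 rats) and TGTR minus TGNT on the right (6 and 4 rats). Points are estimates, bars are 95% intervals, and dotted and dashed lines mark 1.2-fold and 1.5-fold changes in either direction. Every bar crosses 0 and stays within the dotted lines, from -0.21 to 0.24 on the left and from -0.23 to 0.25 on the right.

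The intervals show what size of change these rats leave room for. All 10 intervals at the 95% level lay within the 1.5-fold limit, as did those of 70.1% and 72.2% of all genes, and all 10 lay within a 1.2-fold change in either direction (0.263 on the log2 scale) in both comparisons. The 1.2-fold bound was chosen after the intervals were seen. Intervals within 1.2-fold were found for 39.6% of all genes in the genotype set and 47.5% in the treatment set. These shares, and those within 1.5-fold, take in genes without reads, and so do not measure precision alone. Of the 17168 genes, 14659 in the genotype set and 14884 in the treatment set had reads. Among genes with at least 10 counts in every rat, 39.9% and 51% had intervals within 1.2-fold. The bound farthest from 0 was that of Cdk5r1 (0.24) for TGNT against WTNT and that of Cdk5 (0.25) for TGTR against TGNT. The 10 genes also varied less between rats of a group than genes with at least 10 counts. They had at least 212 counts per rat, however, and spread relative to the mean is larger at low counts. No set of genes with like counts was compared. Neither the narrow intervals nor the low variation is thus shown to be particular to these 10 genes. Their median coefficient of variation (CV) was 6.85% in WTNT and 6.05% in TGNT rats of the genotype set, against 10.9% and 10.3% for all genes with at least 10 counts in every rat, and 5.20% in TGNT and 6.09% in TGTR rats of the treatment set, against 8.48% and 8.89%.

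Promoters of 3 genes are shown because the genes behind them varied together, or in opposite directions, from rat to rat, as described with the deviations of single rats further on. Each is the window from 250 bases before to 50 bases after the RefSeq start of the gene on the GRCr8 assembly, written 5′ to 3′ on the strand of the gene, with capitals marking the letters of a GC box (GGGCGG, or CCGCCC where it is read on the other strand). The counts were made on rn6, so these coordinates are not those of the counts. The Fyn window is chr20:44322414-44322713 on the plus strand, the Gsk3a window chr1:89953465-89953764 on the minus strand and the Mark1 window chr13:99086652-99086951 on the minus strand.
Fyn: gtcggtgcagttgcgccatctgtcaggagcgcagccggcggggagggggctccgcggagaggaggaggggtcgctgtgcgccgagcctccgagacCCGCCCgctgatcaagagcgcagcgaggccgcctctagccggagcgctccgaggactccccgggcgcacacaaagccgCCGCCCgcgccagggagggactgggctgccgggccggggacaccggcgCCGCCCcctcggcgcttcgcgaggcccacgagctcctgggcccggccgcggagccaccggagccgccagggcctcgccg
Gsk3a: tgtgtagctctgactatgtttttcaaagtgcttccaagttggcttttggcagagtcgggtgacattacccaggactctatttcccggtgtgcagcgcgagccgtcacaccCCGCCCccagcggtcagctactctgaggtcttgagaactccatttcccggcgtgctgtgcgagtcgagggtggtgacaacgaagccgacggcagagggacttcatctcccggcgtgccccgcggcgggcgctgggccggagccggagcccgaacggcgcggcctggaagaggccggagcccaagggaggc
Mark1: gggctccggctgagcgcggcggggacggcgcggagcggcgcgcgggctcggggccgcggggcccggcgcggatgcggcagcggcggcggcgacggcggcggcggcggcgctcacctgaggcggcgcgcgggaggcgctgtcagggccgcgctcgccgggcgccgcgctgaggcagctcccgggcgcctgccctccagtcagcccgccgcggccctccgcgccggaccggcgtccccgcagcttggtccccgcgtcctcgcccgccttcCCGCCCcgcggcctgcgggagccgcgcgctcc
The Fyn window held 3 GC boxes, and the Gsk3a and Mark1 windows 1 each. Promoters were matched for 8 of the 10 genes, all but Mapt and Dyrk1a. GC content was 86% for Mark1, 78% for Fyn and Cdk5r1, 72% for Ppp2ca, 65.3% for Cdk5, 64% for Gsk3a, 60.3% for Mark2 and 34.7% for Gsk3b, against a median of 51.7% over all 33469 promoters of the table. A GC box on either strand was present in 6 of the 8 windows, all but those of Gsk3b and Mark2, and in 33.1% of all promoters. TATAAA and CCAAT, searched on both strands, were in 0 of the 8 windows, and in 14.2% and 37.5% of all promoters. The cyclic AMP response element letters TGACGTCA were in 1 of the 8, that of Ppp2ca, and in 1.83% of all promoters. A match of letters is a description and no evidence of binding.

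Mapt had the largest difference of the 10 between TGNT and WTNT rats. It measured 579, 565, 578, 586 and 597 RPM in WTNT rats 1 to 5, and 597, 577, 525, 517 and 509 RPM in TGNT rats 1 to 5. The WTNT rats lay close together (581 ± 11.6 RPM, SD, n = 5), and TGNT rats 3, 4 and 5 lay below all of them, while TGNT rats 1 and 2 lay among them (545 ± 39.6 RPM, n = 5). The log2 fold change was -0.09 ± 0.057 (SE), with an interval from -0.21 to 0.03 and an adjusted p of 1 in edgeR's quasi-likelihood test with Benjamini-Hochberg adjustment. The difference in RPM did not exceed the spread between rats (exact permutation test, two-sided, p = 0.111, where 5 against 5 rats allow 0.00794 at the smallest). In the treatment set, Mapt measured 636, 676, 688 and 683 RPM in TGNT rats and from 597 to 673 RPM with a median of 655 in TGTR rats. The groups overlapped, and the lowest value was that of TGTR rat 5. The log2 fold change was -0.05 ± 0.047, with an interval from -0.15 to 0.05 (two-sided exact permutation test of RPM, p = 0.20, smallest possible 0.00476 for 4 against 6 rats).

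**Figure D2:**
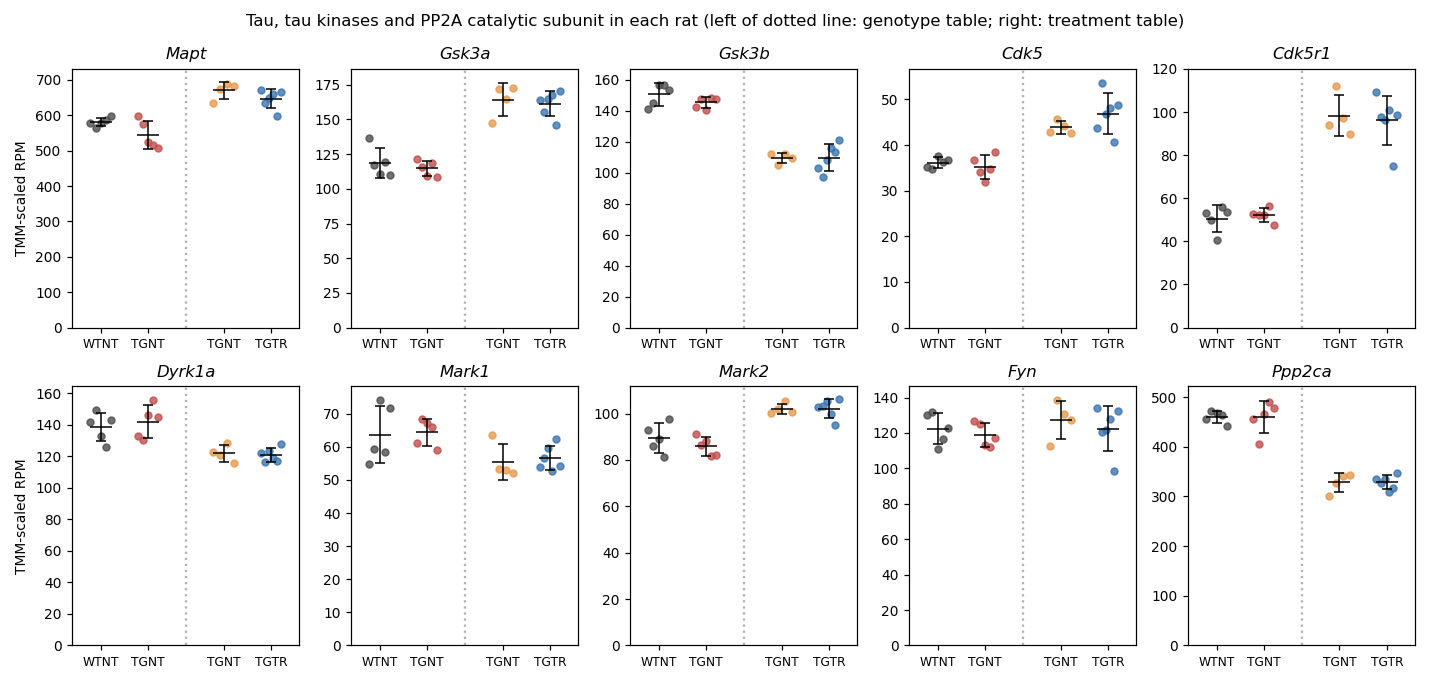
RPM (y axis, from 0) of each of the 10 genes in every rat, with WTNT and TGNT rats of the genotype set left of the dotted line and TGNT and TGTR rats of the treatment set right of it. Points are rats, and horizontal bars with whiskers are the mean and SD of 5, 5, 4 and 6 rats. Groups overlap within each set for every gene, as for Mapt, where WTNT rats span 565 to 597 RPM and TGNT rats 509 to 597 RPM, and the sets were normalized separately.

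Gsk3a and Gsk3b encode the alpha and beta forms of glycogen synthase kinase 3, the proline-directed kinase most often tied to tau. Gsk3a measured 137, 117, 111, 119.5 and 109.8 RPM in WTNT rats and 121, 116, 109, 118.5 and 108.5 RPM in TGNT rats of the genotype set. WTNT rat 1 was the highest, and the other WTNT rats and all TGNT rats lay between 108.5 and 121 RPM. The log2 fold change of Gsk3a was -0.04 ± 0.068, and it was 0.005 without WTNT rat 1. Gsk3b measured 141, 145, 157, 157 and 153 RPM in WTNT rats and 142, 148, 141, 148 and 148 RPM in TGNT rats. For Gsk3b, TGNT rats lay toward the low end of the WTNT range, and TGNT rat 3 lay just below it. The log2 fold change was -0.04 ± 0.056 with an interval from -0.16 to 0.07. After treatment, Gsk3a ran from 146 to 171 RPM (median 164) in TGTR rats beside 148, 172, 165 and 173 RPM in TGNT rats, a log2 fold change of -0.02 ± 0.059. Gsk3b ran from 96.9 to 121 RPM (median 111) in TGTR rats beside 112, 105, 112 and 109.5 RPM in TGNT rats. TGTR rats thus lay on both sides of the TGNT rats for Gsk3b, and its log2 fold change was 0.00 ± 0.059 with an interval from -0.13 to 0.13.

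Cdk5 encodes cyclin-dependent kinase 5, a kinase of neurons that is inactive alone, and Cdk5r1 encodes p35, the activator whose calpain fragment p25 keeps the kinase active for longer. Cdk5 measured 35.1, 34.8, 37.7, 36.4 and 36.6 RPM in WTNT rats and 36.7, 34.1, 31.8, 34.8 and 38.5 RPM in TGNT rats of the genotype set. The lowest and the highest value were both of TGNT rats, and the log2 fold change was -0.03 ± 0.071. With treatment, Cdk5 measured 42.9, 45.7, 44.3 and 42.7 RPM in TGNT rats and from 40.7 to 53.5 RPM, with a median of 47.4, in TGTR rats. Of the 6 TGTR rats, 4 lay above all TGNT rats and TGTR rat 5 lay below all of them. This was the largest log2 fold change of the 10 genes in the treatment comparison, 0.10 ± 0.068, with an interval from -0.05 to 0.25 and an adjusted p of 0.99 in edgeR's quasi-likelihood test with Benjamini-Hochberg adjustment (two-sided exact permutation test of RPM, p = 0.233). Without TGTR rat 5, Cdk5 had a log2 fold change of 0.14 and an unadjusted p of 0.037 in the edgeR fit, the only member to come under 0.05 when any single rat was left out, and its adjusted p was then 0.951.

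Cdk5r1 measured 53.2, 49.7, 40.5, 56.0 and 53.7 RPM in WTNT rats and 52.6, 52.3, 52.1, 56.5 and 47.7 RPM in TGNT rats. WTNT rat 3 was the lowest of the set, and without it the log2 fold change of 0.06 ± 0.086 became -0.03. Among the treatment rats, Cdk5r1 measured 94.2, 112, 97.2 and 90.0 RPM in TGNT rats and from 74.9 to 109 RPM, with a median of 98.1, in TGTR rats, with TGTR rat 5 lowest. The log2 fold change was -0.03 ± 0.09, with an interval from -0.22 to 0.17. The RPM of Cdk5r1 divided by that of Cdk5 in the same rat was 1.40 ± 0.19 in WTNT and 1.49 ± 0.164 in TGNT rats, and 2.24 ± 0.149 in TGNT and 2.06 ± 0.243 in TGTR rats of the treatment set (SD, two-sided exact permutation tests, p = 0.484 for genotype and p = 0.205 for treatment, unadjusted over the 8 ratio tests made). Cdk5r2, which encodes the other activator p39, varied more between rats, with WTNT rats of the genotype set from 41.6 to 66.6 RPM and TGNT rats from 29.6 to 66.0 RPM, with a log2 fold change of -0.25 ± 0.181. With treatment its log2 fold change was 0.12 ± 0.126, and both intervals included 0.

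Dyrk1a encodes a dual-specificity kinase whose human gene lies in the region present in an extra copy in Down syndrome. It measured 142, 149, 133, 126 and 143 RPM in WTNT rats and 133, 131, 146, 156 and 145 RPM in TGNT rats. TGNT rat 4 was the highest and WTNT rat 4 the lowest, and the groups overlapped over most of their range (log2 fold change 0.04 ± 0.067). The spread in the treatment set was narrow, with 123, 121, 129 and 116 RPM in TGNT rats and 116 to 128 RPM (median 120.4) in TGTR rats. The log2 fold change of Dyrk1a with treatment was -0.01 ± 0.046, with an interval from -0.11 to 0.09.

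Mark1 and Mark2 encode microtubule affinity-regulating kinases. Mark1 measured 54.9, 59.2, 74.0, 58.4 and 71.9 RPM in WTNT rats and 61.2, 68.3, 67.2, 65.9 and 59.2 RPM in TGNT rats. WTNT rats 3 and 5 lay above every TGNT rat and the other 3 WTNT rats lay below all but the lowest TGNT rat, and the CV of 13.6% in WTNT rats was the largest of any of the 10 genes in any group. Its log2 fold change was 0.02 ± 0.088. Of the treatment rats, TGNT rat 1 had 63.7 RPM of Mark1 and the other 3 TGNT rats had 52.1 to 53.5 RPM, while TGTR rats ran from 52.7 to 62.3 RPM with a median of 55.5. TGTR rat 5 was the highest TGTR rat here, and the log2 fold change was 0.03 ± 0.068. Mark2 was steadier, at 93.0, 86.2, 89.1, 81.1 and 97.8 RPM in WTNT rats and 91.4, 86.3, 88.2, 81.5 and 82.2 RPM in TGNT rats (log2 fold change -0.05 ± 0.064). In the treatment set Mark2 measured 100.2, 102, 105 and 101 RPM in TGNT rats, while TGTR rats ran from 95.1 to 106 RPM (median 103). Its standard error of 0.042 there was the smallest of the 10 genes, and its interval ran from -0.09 to 0.10.

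Fyn encodes a Src-family tyrosine kinase that binds tau at postsynaptic sites. It measured 130.3, 132, 111, 116 and 123 RPM in WTNT rats and 127, 125, 113, 112 and 117 RPM in TGNT rats. The range of the TGNT rats lay inside that of the WTNT rats (log2 fold change -0.04 ± 0.064). With treatment, Fyn measured 113, 139, 131 and 127 RPM in TGNT rats and 98.4, 121, 122, 128, 132 and 134 RPM in TGTR rats in ascending order. TGTR rat 5 stood apart at the low end, and TGNT rat 1 was the next lowest of the 10 rats. Its log2 fold change was -0.05 ± 0.082 with all rats and 0.004 without TGTR rat 5.

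Ppp2ca encodes the alpha form of the PP2A catalytic subunit. It measured 456, 472, 469, 463 and 441 RPM in WTNT rats and 456, 406, 466, 491 and 478 RPM in TGNT rats. The means were 460 ± 12.2 and 459 ± 32.4 RPM, with the lowest and the highest rats both TGNT. Its log2 fold change was 0.00 ± 0.058, with an interval from -0.12 to 0.13. Of the treatment rats, Ppp2ca measured 301, 326, 341 and 344 RPM in TGNT rats and 308 to 347 RPM (median 331) in TGTR rats, a log2 fold change of 0.00 ± 0.052. Ppp2cb, which encodes the beta form, measured 166, 164, 169, 155 and 157 RPM in WTNT rats and 157, 147, 160.0, 179.6 and 177 RPM in TGNT rats (log2 fold change 0.02 ± 0.064).

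The beta form did stand apart in RPM with treatment. Ppp2cb measured 127, 127, 131 and 134 RPM in TGNT rats and 135, 135, 136.5, 142.5, 143 and 144 RPM in TGTR rats in ascending order. All 6 TGTR rats lay above all 4 TGNT rats. Its log2 fold change was 0.11 ± 0.041, with an unadjusted p of 0.0232 and an adjusted p of 0.964 in edgeR's quasi-likelihood test with Benjamini-Hochberg adjustment, so it was not called. The ratio of Ppp2cb to Ppp2ca was 0.396 ± 0.0169 in TGNT and 0.426 ± 0.0293 in TGTR rats, and these overlapped (SD, two-sided exact permutation test, p = 0.119).

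TGTR rat 5 was low for most of the 10 genes. It had the lowest value of all 10 rats of the treatment set for Mapt, Gsk3a, Cdk5, Cdk5r1, Mark2 and Fyn, 6 of the 10 genes, and the highest value of its group for Mark1. The choroid plexus, the epithelium that makes cerebrospinal fluid and adjoins the hippocampus, has markers such as Ttr and Folr1, and the summed level of 10 such markers was 2933 RPM in TGTR rat 5. It was 148 RPM in TGTR rat 6, 8.75 to 11.1 RPM in the other 4 TGTR rats and 11.7 to 23.8 RPM in TGNT rats. The library total of TGTR rat 5, 9215039 counts, was also the lowest of the treatment set. TGTR rat 5 was also the lowest of the 10 rats for the summed markers of mature neurons (7728 RPM, the others 8025 to 8783 RPM), hippocampal excitatory neurons (2636 RPM, the others 3054 to 4213 RPM), astrocytes (5286 RPM, the others 5729 to 6472 RPM) and microglia (335 RPM, the others 342 to 375 RPM). It was the highest for endothelial markers (389 RPM, the others 293 to 363 RPM). The part of these cell types and of depth in the low values of TGTR rat 5 was not tested. Without TGTR rat 5, the log2 fold changes were -0.03 for Mapt, 0.005 for Gsk3a, 0.03 for Cdk5r1 and 0.004 for Fyn, and no member was called.

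**Figure D3:**
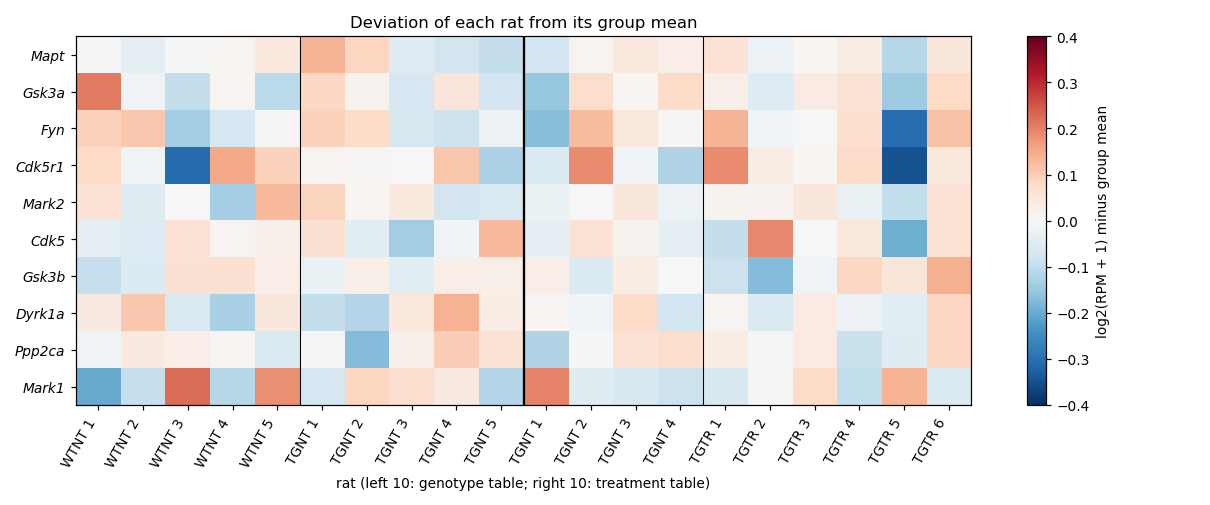
Deviation of each rat from the mean of its own group, in log2(RPM + 1), as colour (red above, blue below), for the 10 genes in rows and the 20 rats in columns, with the genotype set left of the thick line. The order of the rows was set by hand and is not a ranking by correlation with Mapt. TGTR rat 5 is blue for Mapt, Gsk3a, Fyn, Cdk5r1, Mark2 and Cdk5 and red for Mark1, and WTNT rat 3 is blue for Cdk5r1 and Fyn and red for Mark1.

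Within groups, the 10 genes did not move as one from rat to rat. Over the 45 pairs of genes, the median Pearson r of the deviations from the group means in log2(RPM + 1) over 20 rats was 0.116, with 6 pairs above 0.5 and 2 below -0.5. Without TGTR rat 5 the median was 0.00177, with 2 pairs above 0.5 and 2 below -0.5. These correlations are descriptions without a test, since the points of a rat share its library and its normalization. Fyn and Gsk3a varied together (r = 0.698), as did Fyn and Mapt (r = 0.684) and Fyn and Cdk5r1 (r = 0.672). Mark1 varied against Gsk3a (r = -0.738) and against Fyn (r = -0.628). Over the 19 other rats the 5 values were 0.642, 0.587, 0.486, -0.713 and -0.611 in the same order. The part of cell types in these correlations was not tested. The promoters of Fyn and Mark1 printed above were both rich in G and C, while that of Gsk3a was less so.

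The 5 genes whose deviations were most like those of Mapt, out of 11338 compared (mean counts of 10 or more in both sets), were Cltb (r = 0.904), which encodes a clathrin light chain, Apbb1 (r = 0.90), which encodes the APP-binding adaptor Fe65, Wipi2 (r = 0.888), which encodes an autophagy protein, Igsf8 (r = 0.887) and Zbtb7a (r = 0.884). Within each set of 10 rats their r was at least 0.79. The 5 were picked by r over these same rats, so this is no independent check of their likeness to Mapt. Among the other 9 genes followed here, Fyn came closest at rank 366, then Mark2 (r = 0.57) and Gsk3a (r = 0.517), while Gsk3b (r = 0.0136) had an r near 0 with Mapt. For some genes the sets gave opposite signs, as for Dyrk1a (r = -0.688 in the genotype set and 0.388 in the treatment set) and Ppp2ca (r = -0.705 and 0.635).

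The wider tau pathway was read from 6 lists, of which 104 of 113 genes were in the tables. They held other tau kinases (36 genes found), regulators of CDK5 and GSK3 (8), PP2A subunits and regulators (19), other tau phosphatases (9), microtubule-associated proteins (18) and genes of tau turnover and non-phosphate modification (14). None of the 104 genes was called in either comparison. For genotype, 43 were higher in TGNT rats and 61 lower (44.3% of all genes were higher, and 52.1% of those with at least 10 counts in every rat), with a median log2 fold change of -0.0149. Of the 104, 6 (5.77%) had an unadjusted p under 0.05, against 3.23% of all genes and 4.07% of those past filterByExpr. They were 1 higher and 5 lower, where 1.72% of all genes were higher and 1.5% lower at that p. By list these 6 were 5 of the other tau kinases and 1 of the microtubule-associated proteins, and 0 in the other 4 lists, and the list medians ran from -0.0372 to 0.00165.

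Of these 6, only Mapk3, which encodes the kinase ERK1, was higher in TGNT rats, at 113, 96.1, 113, 103 and 104 RPM against 96.8, 86.7, 94.5, 76.3 and 99.7 RPM in WTNT rats (log2 fold change 0.23 ± 0.076, unadjusted p = 0.00906 in edgeR). TGNT rat 2 lay within the WTNT range and the other 4 above it. Map4, which encodes a microtubule-associated protein with a repeat region like that of tau, measured 674, 694, 642, 654 and 659.7 RPM in TGNT rats and 794, 838, 708, 811 and 663 RPM in WTNT rats (log2 fold change -0.19 ± 0.066, unadjusted p = 0.011). WTNT rat 5 lay among the TGNT rats and the other 4 lay above them. Ttbk1, a tau tubulin kinase of neurons, had a log2 fold change of -0.26 ± 0.108 and Prkca, a protein kinase C, of -0.24 ± 0.097. Ttbk1 and Prkca had whole counts in only 4 rats each, and fractions in the others, as RSEM gives where reads are divided among genes. For Dyrk2 the log2 fold change was -0.21 ± 0.072, and for the tyrosine kinase gene Abl1 -0.15 ± 0.065. All 6 had an adjusted p of 1 in edgeR's quasi-likelihood test with Benjamini-Hochberg adjustment. The count of 6 depended on single WTNT rats, being 3 without WTNT rat 1 and 13 without WTNT rat 3.

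Markers of other cell types are given beside these counts. All 10 oligodendrocyte markers were lower in TGNT than in WTNT rats (median log2 fold change -0.19), and TGNT rats had summed levels of 4534 to 8281 RPM, WTNT rats of 4818 to 10950 RPM. All 10 microglia markers were higher (median 0.105), and TGNT rats had sums of 298 to 315 RPM, WTNT rats of 282 to 299.6 RPM. Of the other lists, 2 of 10 mature neuron markers (median -0.0349), 2 of 10 hippocampal excitatory neuron markers (-0.121), 5 of 9 astrocyte markers (0.0277), 5 of 9 endothelial markers (0.0133) and 3 of 10 choroid plexus markers (-0.264) were higher in TGNT rats. An unadjusted p under 0.05 was found for 2 oligodendrocyte markers and 1 choroid plexus marker, all lower, and for 0 in the other 5 lists. None of these markers was called, and their part in the differences of tau pathway genes was not tested.

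**Figure D4:**
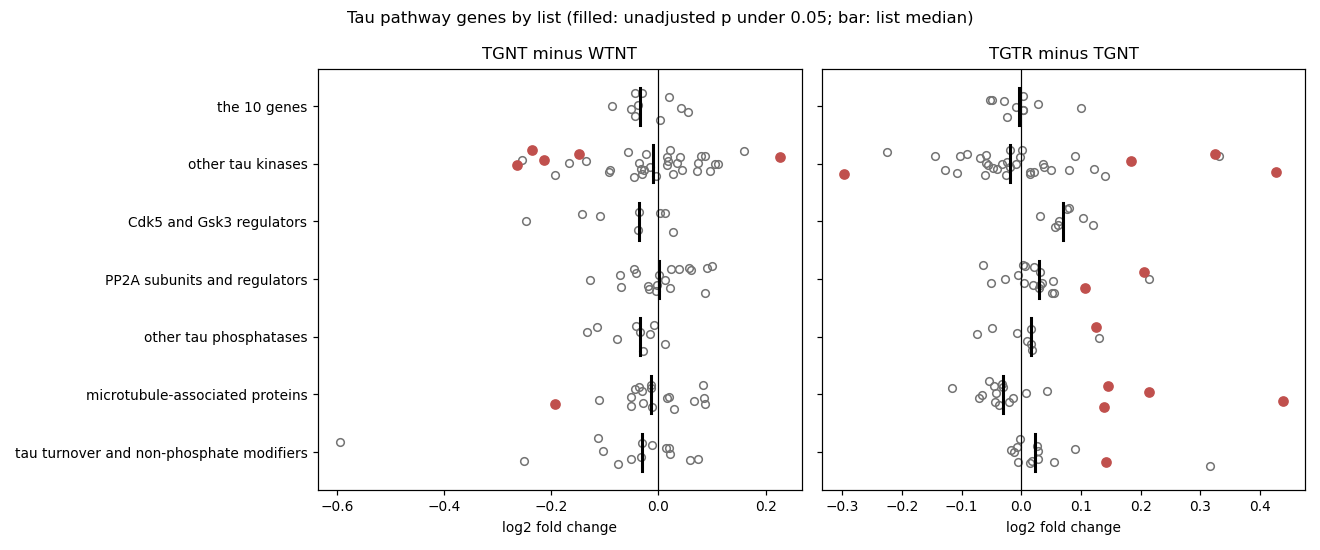
Log2 fold change (x axis) of the 10 genes and of the genes of 6 tau pathway lists (rows), TGNT minus WTNT on the left and TGTR minus TGNT on the right. Circles are genes, filled where the unadjusted p of edgeR was under 0.05, and vertical bars are list medians. The 10 genes have no filled circle in either panel, while the lists have 6 on the left and 12 on the right, 11 of the latter above 0.

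With treatment, 59 of the 104 genes were higher and 45 lower, with a median log2 fold change of 0.0144. An unadjusted p under 0.05 was found for 12 (11.5%), against 4.91% of all genes and 6.14% of those past filterByExpr. Of the 12, 11 were higher and 1 lower (2.98% and 1.93% of all genes). These 12 were 4 of the other tau kinases, 4 of the microtubule-associated proteins, 2 of the PP2A list, and 1 each of the other phosphatases and the turnover list. In the fit limited to genes past filterByExpr, 11 pathway genes had such a p. All 8 regulators of CDK5 and GSK3 in the table had log2 fold changes above 0, with a median of 0.0702, and 0 of them had an unadjusted p under 0.05. Without TGTR rat 5, 7 of these 8 were above 0 and 1 had an unadjusted p under 0.05. The medians of the other lists ran from -0.031 to 0.0294. Of all genes, 43.5% had a log2 fold change above 0, and 49.9% of those with at least 10 counts in every rat.

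Pak1, which encodes a p21-activated kinase of the actin cytoskeleton, had the lowest p. It measured 182, 156, 163 and 171 RPM in TGNT rats and 193, 199, 207, 209.9, 217 and 234 RPM in TGTR rats in ascending order. The groups did not overlap, and the log2 fold change was 0.32 ± 0.062 with an interval from 0.19 to 0.46. Its adjusted p was 0.40 in edgeR's quasi-likelihood test with Benjamini-Hochberg adjustment, 0.0468 in edgeR's likelihood ratio test, 0.051 in its exact test and 0.00309 in DESeq2, in each case at less than a 1.5-fold change. The range over all alternatives reached 1.

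Stmn1, which encodes stathmin, a protein that destabilizes microtubules, measured 212, 165, 176 and 187 RPM in TGNT rats and from 219.7 to 306 RPM (median 234) in TGTR rats. All 6 TGTR rats lay above all TGNT rats, and the log2 fold change was 0.44 ± 0.103 with an adjusted p of 0.858 in edgeR's quasi-likelihood test with Benjamini-Hochberg adjustment. Among the genotype rats, Stmn1 ranged from 189 to 417 RPM in WTNT alone. Ppp2r1b, which encodes a scaffold subunit of PP2A, ran from 16.6 to 18.9 RPM untreated and from 19.3 to 22.6 RPM treated, again without overlap (log2 fold change 0.21 ± 0.069). Mapk12, which encodes a p38 kinase, was the 1 gene on the lower side, with TGNT rats at 7.74 to 9.73 RPM and TGTR rats at 6.14 to 7.57 RPM (log2 fold change -0.30 ± 0.112), and its counts were fractions in every rat, as RSEM gives where reads are divided among genes.

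Dclk1 (0.21 ± 0.063), a doublecortin-like kinase that binds microtubules, Sik1 (0.43 ± 0.151), a salt-inducible kinase, Map6 (0.14 ± 0.059), which stabilizes microtubules, Ppp1cb (0.13 ± 0.054), a catalytic subunit of protein phosphatase 1, and Stmn4 (0.14 ± 0.063), a stathmin relative, were higher on the log2 scale in TGTR rats, each with groups that overlapped. Adjusted p for the 10 named genes ran from 0.40 to 0.99 in edgeR's quasi-likelihood test with Benjamini-Hochberg adjustment. The count of 12 depended on single rats, ranging from 5 without TGNT rat 2 to 17 without TGNT rat 1, and was 13 without TGTR rat 5. It was also 7 without TGNT rat 4 and 7 without TGTR rat 3.

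Beside these counts, all 10 oligodendrocyte markers (median log2 fold change 0.224), all 9 endothelial markers (0.177) and all 10 choroid plexus markers (3.1) had higher fitted levels in TGTR rats. The choroid plexus value rested on TGTR rats 5 and 6, since the other 4 TGTR rats (8.75 to 11.1 RPM summed) lay below all TGNT rats (11.7 to 23.8 RPM), and without both rats 2 of the 10 markers were higher and 8 lower, 4 of them with an unadjusted p under 0.05, with a median of -0.333. Oligodendrocyte markers summed to 4343 to 6890 RPM in untreated and 5123 to 7821 RPM in treated rats, and endothelial markers to 293 to 334 RPM and 313 to 389 RPM. All 10 mature neuron markers were lower (-0.0439), as were 8 of 10 of hippocampal excitatory neurons (-0.0985), 9 of 9 of astrocytes (-0.0461) and 8 of 10 of microglia (-0.0338). Without TGTR rat 5, 9 of 10 mature neuron, 5 of 10 hippocampal excitatory neuron, 4 of 9 astrocyte and 4 of 10 microglia markers were lower. An unadjusted p under 0.05 was found for 4 of 9 endothelial, 4 of 10 choroid plexus and 1 of 10 oligodendrocyte markers, all higher, against 12 of 104 pathway genes. Without TGTR rat 5 these counts were 3, 0 and 3, all higher, and 1 mature neuron marker was lower at that p. None was called, and their part in the counts of pathway genes was not tested.

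The TGNT rats of the 2 sets stood at different levels for most of the 10 genes, which is given side by side without a test. Cdk5r1 ran from 47.7 to 56.5 RPM in TGNT rats of the genotype set and from 90.0 to 112 RPM in those of the treatment set. Gsk3b ran from 141 to 148 RPM and from 105 to 112 RPM, and Ppp2ca from 406 to 491 RPM and from 301 to 344 RPM. For these 3 genes the ranges of the 2 sets did not overlap in rats of 1 genotype, age and diet. Nor did they for Mapt (509 to 597 and 636 to 688 RPM) and Gsk3a (108.5 to 121 and 148 to 173 RPM). The same held for Cdk5 (31.8 to 38.5 and 42.7 to 45.7 RPM) and Dyrk1a (131 to 156 and 115.5 to 129 RPM). It also held for Mark2 (81.5 to 91.4 and 100.2 to 105 RPM), while the ranges of Mark1 and Fyn overlapped. The share of such genes among all genes was not computed. Mapt, Gsk3a, Cdk5, Cdk5r1 and Mark2 were higher in the treatment set, and Gsk3b, Dyrk1a and Ppp2ca were lower. The cause was not tested. The rats, the dissection and the sequencing of the sets cannot be told apart.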

How the data were processed

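Hippocampal RNA of 20 female rats was sequenced as 1 library per rat, and every column was matched to a rat by its title. The submitters' processing notes name bcl2fastq 2.17, Bowtie2 2.1.0, RSEM 1.2.15, edgeR and the rn6 build, and the annotation is not given in the sources used here. The authors deposited estimated counts per gene symbol, which RSEM divides among genes when reads fit several, and RPM, a signal scaled by TMM factors over the 10 rats of each set.

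Estimated counts were rounded and fitted in R 4.3.3 with edgeR 4.0.16 (TMM factors, quasi-likelihood test over all 17168 genes, Benjamini-Hochberg adjustment, no filter on low counts), each set by itself, and all p-values are two-sided. RPM of single genes were compared with exact permutation tests of group means over all 252 or 210 arrangements of the rats. The fits were tested on simulated data with known fold changes. Replicates of a group differed beyond sampling noise (chi-square per degree of freedom at least 2.2 in the genotype set and 5.51 in the treatment set). Replicate numbers did not pair the rats throughout.

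The 10 genes, the 6 pathway lists and the 7 marker lists were chosen with earlier results of these data known, and the ratios and the 1.2-fold bound after values were seen. Pathway genes named are those with an unadjusted p under 0.05, at most 10 per comparison by lowest p, with Cdk5r2 and Ppp2cb in any case, and the 5 genes most like Mapt by Pearson r. Promoters come from RefSeq. Alternatives were other normalizations, filters, DESeq2 1.42.0, other edgeR tests, limma 3.58.1 on log2(RPM + 1 or 0.1), robust estimation, a replicate block, and each rat left out in turn. The count of pathway genes at an unadjusted p under 0.05 was added to the alternatives after the data were seen. Depth limits the precision of genes with few counts more than that of the 10 genes.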

Additional observations from a re-analysis of the deposited data

Results flagged for a closer look

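Of 136 groups of rats checked (34 genes and marker sums in 4 groups), 7 held a rat that stood apart from the rest of its group by the ratio of its gap to the range, where chance gives about 6.8. Among the 10 genes, Fyn stood apart in TGTR rat 5 at 98.4 RPM, with the next TGTR rat at 121 RPM. Mark1 stood apart in TGNT rat 1 of the treatment set at 63.7 RPM, with the next at 53.5 RPM. Of its group, that TGNT rat had the lowest summed markers of mature neurons (8292 RPM), hippocampal excitatory neurons (3054 RPM) and oligodendrocytes (4343 RPM). It had the highest of microglia (375 RPM) and endothelial cells (334 RPM). The part of these cell types in its Mark1 value was not tested. Among pathway genes, Dyrk2 was high in WTNT rat 5 (220.0 RPM, next 191.5 RPM) and Ttbk1 was low in TGTR rat 5 (134 RPM, next 160.2 RPM). Of the marker sums, choroid plexus was high in TGTR rat 5 (2933 RPM, next 148 RPM), and microglia was low in TGTR rat 5 (335 RPM, next 358 RPM) and in TGNT rat 4 of the genotype set (298 RPM, next 310.5 RPM). TGTR rat 5 accounted for 4 of the 7.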

How the results depend on the processing

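No member was called under any alternative in either comparison, at any fold change. The sign of the log2 fold changes of the 10 genes turned in 58 recomputed values and held in 392, and the cause was not tested. Ppp2ca between TGNT and WTNT rats was -0.0070 with RLE factors, -0.0043 with filterByExpr, -0.0019 with at least 10 counts in every rat, -0.0069 with DESeq2, and -0.0056 with limma-trend at either pseudocount. Between TGTR and TGNT rats, upper quartile factors gave -0.0041 for Gsk3b, -0.0034 for Mark2 and -0.0036 for Ppp2ca, library size alone gave 0.014 for Gsk3a, 0.0061 for Cdk5r1 and 0.028 for Dyrk1a, limma-trend gave -0.0021 for Gsk3b with 1 added and -0.0022 with 0.1 added, and TGTR rats 5 and 6 both left out gave -0.049 for Gsk3b, 0.037 for Cdk5r1 and -0.0078 for Ppp2ca. Leaving out 1 rat at a time, the genotype values ranged from -0.080 to 0.0053 (Gsk3a), -0.028 to 0.086 (Cdk5r1), -0.0061 to 0.069 (Dyrk1a), -0.033 to 0.070 (Mark1) and -0.033 to 0.032 (Ppp2ca), and the treatment values from -0.070 to 0.0052 (Gsk3a), -0.028 to 0.036 (Gsk3b), -0.071 to 0.036 (Cdk5r1), -0.036 to 0.017 (Dyrk1a), -0.0028 to 0.10 (Mark1), -0.0093 to 0.024 (Mark2), -0.11 to 0.0036 (Fyn) and -0.034 to 0.024 (Ppp2ca). Members at an unadjusted p under 0.05 then numbered 0 in the genotype comparison and 0 to 1 in the treatment comparison, and pathway genes 3 to 13 and 5 to 17. Pathway genes with treatment numbered 7 in edgeR's likelihood ratio test and 7 in its exact test, against 12. Same-numbered rats did not deviate together throughout (correlations from -0.246 to 0.361 in the genotype set and from -0.608 to 0.196 in the treatment set). WTNT rats 1 and 3 did correlate best with the TGNT rat of their own number (0.361 and 0.176). No TGNT rat of the treatment set did so with its TGTR rat. The replicate block thus pairs only numbers. Under the block no member was called, pathway genes at an unadjusted p under 0.05 numbered 6 with genotype and 7 with treatment, and Gsk3b (-0.047), Cdk5r1 (0.043) and Ppp2ca (-0.0032) turned their sign with treatment. Over all genes, the call count was 2 in the genotype comparison and 0 in the treatment comparison, 4 and 5 in the likelihood ratio test, 4 and 3 in the exact test and 2 and 3 in DESeq2.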

Other observations

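The ratio of Gsk3b to Gsk3a in RPM was 1.28 ± 0.155 in WTNT and 1.27 ± 0.0674 in TGNT rats (SD, exact permutation test, two-sided, p = 0.921), and 0.67 ± 0.0644 in TGNT and 0.681 ± 0.0574 in TGTR rats (p = 0.781). The ratio of Mark1 to Mark2 was 0.712 ± 0.0869 in WTNT and 0.75 ± 0.0564 in TGNT rats (exact permutation test, p = 0.444), and 0.545 ± 0.0613 in TGNT and 0.556 ± 0.0522 in TGTR rats (p = 0.757). These ratios were chosen after the data were seen. RPM are not divided by gene length, so such a ratio does not show which gene had more mRNA. The Gsk3b to Gsk3a ratio ran from 1.03 to 1.41 over all 10 rats of the genotype set. It was lower in all 10 rats of the treatment set (0.611 to 0.776). The cause was not tested. Both levels of a ratio come from the same rat, so its library size and TMM factor cancel. The sequencing of the sets, their rats and their dissection cannot be told apart. In WTNT rat 3, Stmn1 (417 RPM), Pak1 (330 RPM), Stmn4 (214.5 RPM) and Mark1 (74.0 RPM) were the highest of the genotype set and Cdk5r1 (40.5 RPM) the lowest. This rat also had the highest summed oligodendrocyte (10950 RPM) and endothelial (434 RPM) markers of the genotype set. Its sum for hippocampal excitatory neurons (2442 RPM) was the lowest. Its other marker sums lay between those of other rats, and the part of these cell types in its values was not tested.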
